A study of Mus musculus with 9 samples.

Results

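The genes described here were selected on their levels in both comparisons below: they had lower RNA levels in mouse natural killer (NK) cells after TGF-β1 and higher levels again when the Smad3 inhibitor SIS3 had been given before TGF-β1. A gene was a member when its mean over the 9 libraries was at least 5 CPM, the TGFb mean was lower than the Ctrl mean by at least 0.4 on a log2 scale, the SIS3_TGFb mean was higher than the TGFb mean by at least 0.3, and every TGFb library lay below every library of the other groups. This picked 178 of the 16876 genes in the table. CPM is the expected count as a share of the column total, scaled to the same total in every library, and 0.5 CPM was added to each group mean before the log2 ratio was taken. Because both log2 steps chose the members, their values in these steps are given as a description with no test. For the members, the edgeR test is read only in SIS3_TGFb against Ctrl, on which the rule set no condition, though it used libraries of both groups. Calls in the other steps are given as counts, and for gene lists that hold members these counts include genes chosen on the same steps.

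All cells came from the femoral marrow of C57BL/6 mice and were cultured for 4 days in 50 ng/mL IL-15 plus SCF (30 ng/mL), Flt3L (10 ng/mL) and IL-7 (1 ng/mL), after which a week in IL-15 with 20 ng/mL IL-2 followed. SIS3_TGFb cells had 10 µM SIS3 for 3 h and then 5 ng/mL TGF-β1 for 3 h, TGFb cells had the same TGF-β1 without SIS3, and Ctrl cells had neither, with 3 libraries in each group. The titles of the SIS3_TGFb samples name SIS3 alone, whereas their treatment text includes TGF-β1. No cells had SIS3 without TGF-β1, and whether the controls had the solvent is not stated in the labels, so an effect of SIS3 on the response to TGF-β1 and an effect of SIS3 or its solvent by itself cannot be told apart. Whether the replicates came from separate mice or cultures is not stated, and the p-values therefore speak of the spread between libraries, which may be technical.

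TGF-β1 binds a pair of serine/threonine kinase receptors that phosphorylate Smad2 and Smad3, which join Smad4 and bind DNA together with other factors to raise some genes and lower others. In NK cells it is known as a restraint on cytotoxicity, on interferon-γ production and on growth driven by IL-15. SIS3 is a small molecule described as blocking the phosphorylation of Smad3.

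The libraries held 15714973 to 16718673 expected counts, and 14193 to 14862 genes were above 0 in each. All 14 NK markers examined were above 1 CPM, with summed levels of 18690 to 19160 CPM in SIS3_TGFb, 16800 to 17740 CPM in TGFb and 21830 to 22640 CPM in Ctrl libraries; Ncr1 and Gzmb are both markers and members. Macrophage markers (12 of 12 above 1 CPM) summed to 955 to 1502 CPM in SIS3_TGFb, 851 to 1219 CPM in TGFb and 1157 to 1495 CPM in Ctrl libraries. Dendritic cell markers (7 of 11 above 1 CPM) summed to 537 to 949 CPM in SIS3_TGFb, 442 to 723 CPM in TGFb and 566 to 811 CPM in Ctrl libraries, so transcripts of other cell types were present. Mast cell and basophil markers (9 of 11) summed to 565 to 670 CPM over the 9 libraries, mostly from Kit, Mcpt8 and Cma1, and T cell markers (8 of 10), some of which NK cells share, to 1552 to 1873 CPM. Neutrophil (2 of 11), eosinophil (1 of 6), erythroid and megakaryocyte (4 of 9) and B cell (0 of 8) markers reached at most 295, 7.70, 47.8 and 1.81 CPM in sum, with TGFb replicate 3 far below the other libraries in some of these lists, as given below. Among 9 stromal and endothelial markers 1 was above 1 CPM, Pecam1, which blood cells also carry. No marker of a cell type other than NK cells was a member. In RNA from a whole culture, fewer cells of a type and less RNA per cell cannot be told apart.

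Across the members, the median TGFb minus Ctrl difference was -0.53 and the median SIS3_TGFb minus TGFb difference was 0.50 on the log2 scale of the rule, beside -0.02 and 0.08 over the 9700 genes with a mean of at least 5 CPM. The largest fall was that of Ncr1 (-1.94) and the largest rise that of Ciart (3.23). Most members moved by less: 10 were lowered by 1 log2 unit or more, 25 were higher by 1 or more with SIS3, and 4 did both, namely Ndrg1, Ncr1, Ciart and Grk5. The members' levels summed to 16739, 17334 and 16974 CPM in SIS3_TGFb libraries, 11243, 11108 and 11251 CPM in TGFb libraries and 17206, 16541 and 16782 CPM in Ctrl libraries. Gzmb, the gene of granzyme B, made up a large share of these sums, and without it they were 9449, 9535 and 9266 CPM in SIS3_TGFb, 5809, 5812 and 5542 CPM in TGFb and 8660, 8530 and 8734 CPM in Ctrl libraries.

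**Figure D1:**
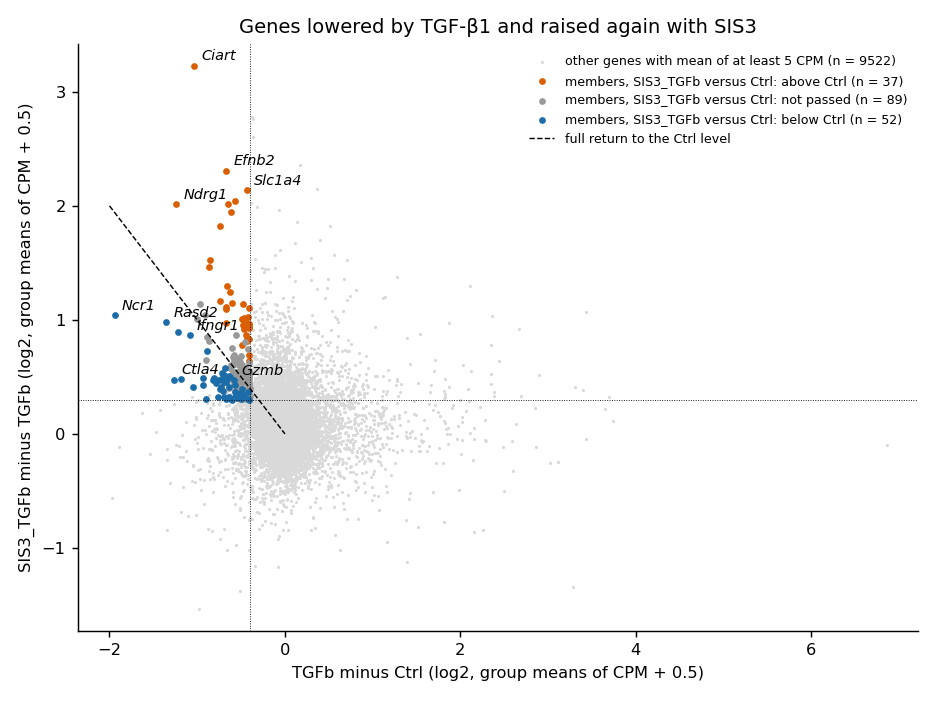
Each point is a gene with a mean of at least 5 CPM, by its TGFb minus Ctrl difference (horizontal) and its SIS3_TGFb minus TGFb difference (vertical), both log2 of group means of CPM plus 0.5. The 178 members lie beyond the dotted limits of -0.4 and 0.3 and are coloured by the edgeR test of SIS3_TGFb against Ctrl: 37 above, 52 below and 89 not passed. The dashed line marks a full return to the Ctrl level.

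**Figure D2:**
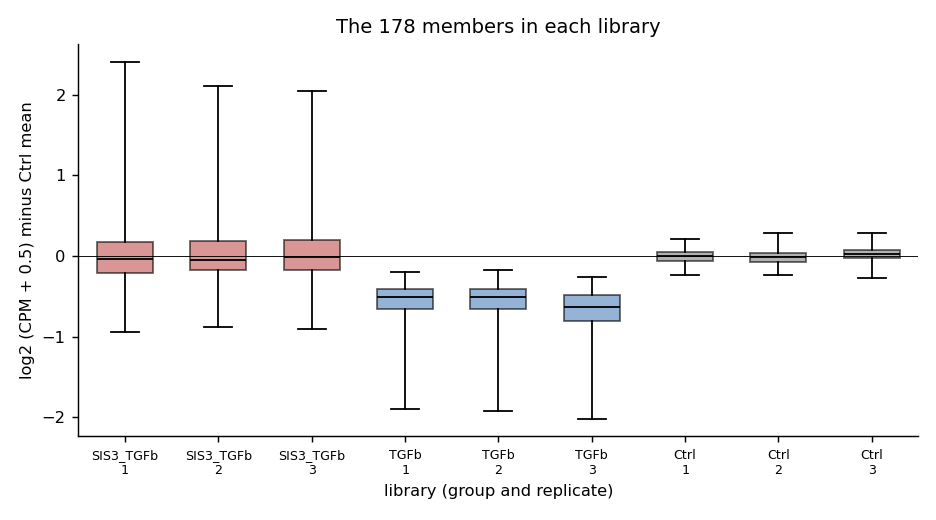
Boxes give the quartiles and whiskers the range over the 178 members of log2(CPM + 0.5) minus the Ctrl mean of the same gene, for each library. The medians lie at -0.03, -0.06 and -0.02 in SIS3_TGFb libraries, at -0.51, -0.51 and -0.64 in TGFb libraries and at -0.01, -0.01 and 0.02 in Ctrl libraries.

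Among genes lowered by TGF-β1 to this extent, the members were the smaller share. The fall and its non-overlap were met by 569 genes, of which 178 (31.3%) were members. A SIS3_TGFb minus TGFb difference between 0 and the limit was found in 166 (29.2%), and one below 0, however small, in 210 (36.9%). The rest met the limit on the rise but had overlapping SIS3_TGFb and TGFb libraries. These counts use column totals and rest on no test. Just inside the limit on the fall were Ugt1a7c (-0.40), Prss16 (-0.40) and Aplf (-0.40), and just outside it, at differences that round to the same value, Mmaa, Hspd1 and Csgalnact2. Just inside the limit on the rise were Mindy1, Trpv2 and Slc25a32 at 0.30, and just outside it Gbp10 and Ccnd2 at 0.30 and Popdc3 at 0.29. Applied with its limits turned round, the rule found 802 raised genes, of which 67 (8.35%) came back down. Scaling mattered here, since dividing by column totals put the median gene 0.08 higher in SIS3_TGFb than in TGFb cells, and no such shift remained with TMM factors (-0.0057). With TMM factors 117 members remained (23.4% of 499 lowered genes) and 115 of 861 raised genes (13.4%) came back down. DESeq2 size factors gave 114 members, all among the 178, and upper-quartile factors gave 152, of which 140 were among the 178. In all, 111 members (62.4%) met the rule under every scaling.

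TGFb replicate 3 stood apart from the other TGFb libraries. It was the lowest of its group in 104 of the 178 members and the highest in 35. Without it the rule found 163 genes, of which 136 were members, and with TMM factors and without it 116, of which 103 were members. Several markers of other cell types were also lowest there. Erythroid and megakaryocyte markers summed to 35.1, 35.4 and 32.5 CPM in SIS3_TGFb, 39, 31.7 and 7.83 CPM in TGFb and 36.7, 38.3 and 47.8 CPM in Ctrl libraries, and eosinophil markers to 5.51, 4.43 and 3.46 CPM in SIS3_TGFb, 7.70, 3.85 and 1.15 CPM in TGFb and 4.66, 5.23 and 6.34 CPM in Ctrl libraries. Of the markers above 1 CPM, TGFb replicate 3 lay below all other libraries in 4 of 4 for the erythroid and megakaryocyte list, 1 of 1 for eosinophils, 5 of 9 for mast cells and basophils, 8 of 12 for macrophages and 5 of 7 for dendritic cells, beside 3 of 14 for NK cells. Among the mast cell and basophil markers, Prss34, a basophil protease, had 33.6, 20.7 and 3.31 CPM and Fcer1a, a chain of the IgE receptor, 2.85, 1.62 and 0 CPM in TGFb libraries, whereas Kit had 239, 222 and 219 CPM. The part of these cells in the members' falls and rises was not tested. When each library in turn was withheld from the choice, it could be placed among the genes that the other 8 libraries chose. A withheld SIS3_TGFb library lay above all TGFb libraries in 175 of 180, 169 of 174 and 171 of 174 chosen genes (97.2%, 97.1% and 98.3%, beside 47.7%, 48.9% and 52.4% of all genes). A withheld TGFb library lay below all others in 207 of 226, 207 of 236 and 156 of 163 (91.6%, 87.7% and 95.7%, beside 20.3%, 19.8% and 30% of all genes). A withheld Ctrl library lay above all TGFb libraries in 182 of 186, 182 of 187 and 157 of 158 (97.8%, 97.3% and 99.4%, beside 38.1%, 39% and 42.7% of all genes). The genes were chosen by the same rule on other libraries of the same groups, so high shares were likely beforehand. The shares over all genes are not matched for that choice, and nothing is read from the contrast.

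The return to the Ctrl level was not uniform. By edgeR's quasi-likelihood test with Benjamini-Hochberg adjustment over 12212 genes, 37 of the 178 members were higher in SIS3_TGFb than in Ctrl cells (20.8%), 52 were lower (29.2%) and 89 did not pass (50%). Of all genes tested, 29% were higher and 24.9% lower, 53.9% in either direction, so the share of members past the test (50%) was near the background. Without scaling factors the members split into 42 higher and 42 lower, and all genes into 4222 higher and 2395 lower instead of 3542 and 3043. The median SIS3_TGFb minus Ctrl difference of the members was -0.11 (range -0.96 to 2.21), beside 0.02 over all genes tested and -0.71 over the 391 lowered genes that were not members, a contrast that the choice of members brings with it. By libraries, 44 members had every SIS3_TGFb library above every Ctrl library, 42 had every one below and 92 overlapped, beside 40.4% above and 25.1% below among all genes with a mean of at least 5 CPM. Expressed as a share of the fall in CPM that was made up, the median was 89.8%, with 77 members (43.3%) over 100% and 16 (8.99%) under 50%. This share, here and for the role groups and genes below, is a description built from the steps that chose the members. It uses column totals, which put the median gene higher in SIS3_TGFb than in TGFb cells. With TMM factors the members' median steps were -0.54 and then 0.43 log2, a less complete return. In the steps that the rule used, all 178 members passed the same test as lower in TGFb than in Ctrl cells (16.4% of all genes) and 161 as higher in SIS3_TGFb than in TGFb cells (21.2% of all genes), from which nothing is read.

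**Figure D3:**
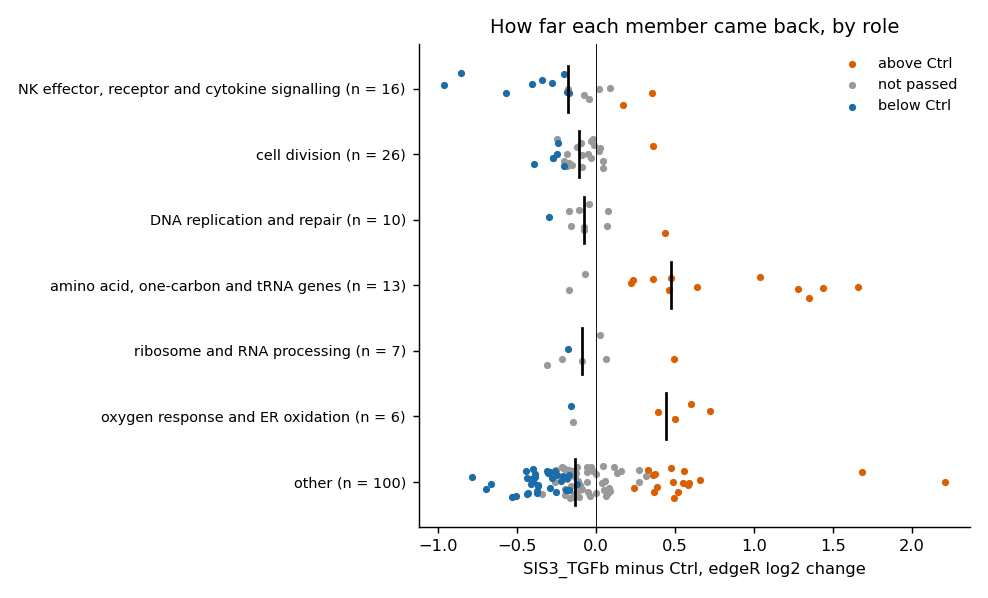
Each point is a member, placed by its SIS3_TGFb minus Ctrl log2 change from edgeR (horizontal) in its role group (vertical, spread at random for visibility), and black bars are group medians. Of the 13 genes in the amino acid and tRNA group, which also holds stress response genes such as Herpud1 and Stc2, 11 lie above Ctrl. In contrast, 9 of the 16 NK effector and signalling genes lie below Ctrl. Of all genes tested, 29% were higher and 24.9% lower. The groups were drawn up after the values were known.

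Roles were assigned from general knowledge after the values had been seen, so no role group was tested as a group. The counts of every role group stand beside those of all genes tested against Ctrl: 29% higher, 24.9% lower and 53.9% in either direction. The 16 members that act in NK effector function or in cytokine and receptor signalling had the lowest median return of the role groups. Of these, 9 stayed below Ctrl (24.9% of all genes), 2 were above it (29% of all genes) and 5 did not pass. The median share of the fall made up was 76%. The counts of this group were 2 above and 8 below without scaling factors, and 2 above and 9 below without SIS3_TGFb replicate 3. With TMM factors 13 of the 16 were still members, and under every scaling 12.

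Ncr1 (chr7:4337715-4345184, build GRCm38.p6) encodes NKp46, an activating receptor by which NK cells recognise target cells. Its level was 77.8, 80.7 and 81.5 CPM in SIS3_TGFb cells, 39.9, 39.2 and 36.6 CPM in TGFb cells and 147, 145 and 157 CPM in Ctrl cells. The SIS3_TGFb libraries thus lay between the other groups with no overlap. In SIS3_TGFb cells 37.3% of the fall was made up, and Ncr1 remained -0.96 ± 0.039 (edgeR adjusted p = 1.18e-11) from Ctrl on the log2 scale. Here ± gives the SE of the edgeR fit with 3 libraries per group. Gzmb (chr14:56258836-56262334) encodes granzyme B, a protease that NK cells deliver into their targets. Its level was 7289.5, 7799 and 7708 CPM in SIS3_TGFb cells, 5434, 5296 and 5708 CPM in TGFb cells and 8546, 8011 and 8048 CPM in Ctrl cells. Every SIS3_TGFb library was below every Ctrl library, at -0.17 ± 0.046 (edgeR adjusted p = 0.0049), while 77.8% of the fall was made up.

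The promoters of Ncr1 and Gzmb are printed because RUNX factors, which act in NK cells, have been tied to both genes' expression in lymphocytes. The Gzmb window was chosen after its values were seen. RefSeq promoter windows of GRCm38.p6 reach from 250 bases before to 50 after the start site, and 137 of the 178 members had one. Capitals mark the RUNX motif TGTGGT (which reads ACCACA when it lies on the opposite strand). In the sequence of Gzmb, capitals also mark the AP-1 motif TGANTCA. Each line is read 5′ to 3′ along the strand of the gene.
Ncr1 (chr7:4337515-4337764, plus strand): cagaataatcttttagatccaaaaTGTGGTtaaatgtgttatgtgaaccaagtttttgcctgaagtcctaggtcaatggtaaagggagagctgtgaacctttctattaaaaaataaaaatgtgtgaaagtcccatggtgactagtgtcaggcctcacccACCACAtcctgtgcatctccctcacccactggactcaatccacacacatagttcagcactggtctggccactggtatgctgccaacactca
Gzmb (chr14:56262285-56262444, minus strand): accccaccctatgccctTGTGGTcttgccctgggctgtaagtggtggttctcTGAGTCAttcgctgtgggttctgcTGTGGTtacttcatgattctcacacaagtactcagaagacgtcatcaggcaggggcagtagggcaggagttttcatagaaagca
The RUNX motif, searched on both strands, was present in 3 of 11 windows of NK effector and signalling members, in 16 of 137 windows of all members (11.7%) and in 992 of 7838 windows of genes with a mean of at least 5 CPM (12.7%). Its share among members was thus near that of all promoters. Among the role groups the RUNX motif was not particular to NK genes, with 3 of 8 windows of replication and repair and 2 of 21 of cell division. The AP-1 motif was in 2 of 11 NK effector and signalling windows, 11 of 137 windows of members (8.03%) and 367 of 7838 windows of all genes (4.68%). A match describes letters in the window and says nothing of binding.

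Of 16 NK cytokine, chemokine and growth factor genes tested, Ifng and Osm were members. Ifng (chr10:118441046-118445894), the gene of interferon-γ, was expressed at a low level of 8, 7.6 and 7.16 CPM in SIS3_TGFb cells, 4.97, 5.41 and 4.07 CPM in TGFb cells and 8.07, 7.06 and 7.87 CPM in Ctrl cells. Its SIS3_TGFb and Ctrl libraries overlapped and the difference of -0.075 ± 0.12 did not pass (edgeR adjusted p = 0.638). Ifngr1, the ligand-binding chain of the interferon-γ receptor, had a larger fall (log2 -1.08). It was measured at 256, 266 and 242 CPM in SIS3_TGFb cells, 149, 137 and 132 CPM in TGFb cells and 303, 297 and 289 CPM in Ctrl cells. Here the SIS3_TGFb libraries were all below Ctrl, by -0.28 ± 0.045 (edgeR adjusted p = 8.52e-05). Osm, the gene of oncostatin M, a cytokine of the IL-6 family, had 15.8, 16.3 and 19.6 CPM in SIS3_TGFb cells, 13.2, 13.3 and 12.6 CPM in TGFb cells and 20.5, 17.5 and 17.9 CPM in Ctrl cells. Osm differed from Ctrl by -0.17 ± 0.089 (edgeR adjusted p = 0.109), which did not pass, and SIS3_TGFb replicate 3, at 19.6 CPM, lay within the Ctrl range; without that library the difference was -0.27 (edgeR adjusted p = 0.0212).

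Ctla4, an inhibitory receptor for CD80 and CD86, came back least among the named NK genes. It had 34.8, 31.5 and 29.2 CPM in SIS3_TGFb cells, 23.8, 20.6 and 23.9 CPM in TGFb cells and 57.1, 52.9 and 55.7 CPM in Ctrl cells. All SIS3_TGFb libraries lay above TGFb and far below Ctrl, with 28% of the fall made up and -0.86 ± 0.072 (edgeR adjusted p = 6.96e-08) against Ctrl. Also below Ctrl were Gbp4, an interferon-induced GTPase (-0.57), Stat4, which carries the IL-12 signal (-0.41), Lilr4b, an inhibitory receptor (-0.34), Gab3, an adaptor (-0.20), and Il4ra, a chain of the IL-4 receptor (-0.18). Gpr132, a G protein-coupled receptor (0.36), and Styk1, a kinase-like membrane protein (0.17), were above it, and P2ry14 (-0.043), Lcp2 (0.017) and Gbp11 (0.091) did not pass. Stat4, Lcp2 and Styk1 were not members with TMM factors. Lilr4b, Gbp4 and Gbp11 have near-identical relatives, so their reads may have been split or shared, and their values are uncertain.

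Of the wider NK gene lists, the cytotoxic list had clearly more genes that fell than rose in the SIS3 step. The activating list had a smaller excess of falls with TMM factors and was near even without scaling factors. The inhibitory list was near even with TMM factors and even without scaling factors. In the list of 24 activating receptors and adaptors tested, which holds Ncr1, 10 fell and 0 rose with TGF-β1, 5 rose and 9 fell with SIS3 against TGFb, and 2 were higher and 13 lower in SIS3_TGFb than in Ctrl cells. Of 22 inhibitory and checkpoint receptors, which hold Ctla4, 3 rose and 10 fell, then 6 rose and 7 fell, and 5 were higher and 14 lower than in Ctrl. Of 23 cytotoxic effectors and granule genes, which hold Gzmb, 5 rose and 10 fell, then 3 rose and 15 fell, and 2 were higher and 16 lower than in Ctrl. Background shares of all genes were 17.9% higher and 16.4% lower for TGFb against Ctrl. They were 21.2% higher and 20.6% lower for SIS3_TGFb against TGFb, and 29% higher and 24.9% lower for SIS3_TGFb against Ctrl. The same shares apply wherever counts of a gene list are given below. Without scaling factors the SIS3 step gave 6 and 7, 6 and 6, and 5 and 11 in the activating, inhibitory and cytotoxic lists. Non-members of these lists include Slamf7, an activating SLAM receptor, at -1.59 ± 0.068 (edgeR adjusted p = 1.95e-11) against Ctrl, Havcr2, the checkpoint receptor TIM-3, at -1.02 ± 0.043 (edgeR adjusted p = 1.8e-11), and Serpinb9, an inhibitor of granzyme B, at -1.43 ± 0.041 (edgeR adjusted p = 2.76e-13). These genes were named for their small p against Ctrl. All of these fell with TGF-β1 (-0.67, -0.44 and -1.14) and were lower again in SIS3_TGFb than in TGFb cells (-0.92, -0.58 and -0.28), comparisons that share the TGFb libraries. Not all NK genes outside the members went this way. The NK marker Klrb1c had 187, 194 and 200 CPM in SIS3_TGFb, 155, 156 and 143 CPM in TGFb and 187.5, 183 and 202 CPM in Ctrl libraries. Of the 14 NK markers, members included, 6 rose and 6 fell with SIS3 against TGFb.

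**Figure D4:**
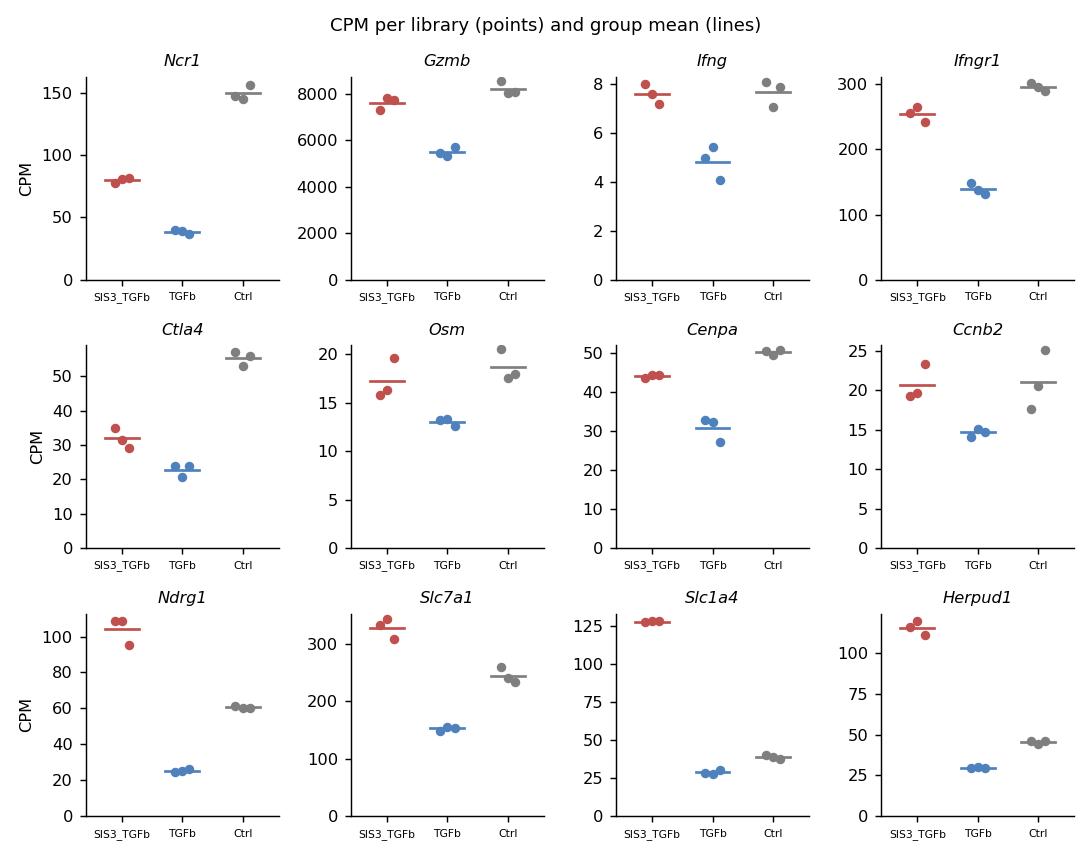
Points are CPM by column totals in each library and lines are group means, for 12 members, with SIS3_TGFb at the left, TGFb in the middle and Ctrl at the right of each panel and every axis starting at 0. Ncr1 and Ctla4 stay well below Ctrl in SIS3_TGFb cells, Ifng and Ccnb2 overlap with it, and Ndrg1, Slc7a1, Slc1a4 and Herpud1 lie above it.

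Cell division gave the largest role group, with 26 members, most of them acting in the G2 and M phases. In SIS3_TGFb cells 19 of the 26 could not be told from Ctrl by the test, 6 were lower (24.9% of all genes) and 1 was higher (29% of all genes). Their median difference was -0.11, and a median share of 87.9% of the fall was made up. Their levels summed to 439, 449 and 491 CPM in SIS3_TGFb, 344, 352 and 303 CPM in TGFb and 473, 477 and 508 CPM in Ctrl libraries. The sum in replicate 3 was the highest of its group in SIS3_TGFb and Ctrl cells and the lowest in TGFb cells, and single genes followed it: SIS3_TGFb replicate 3 was highest in 20 of the 26, TGFb replicate 3 lowest in 17 and Ctrl replicate 3 highest in 18. Most macrophage and dendritic cell markers above 1 CPM moved likewise: within their groups, SIS3_TGFb replicate 3 was highest in 11 of 12 and 5 of 7, TGFb replicate 3 lowest in 10 of 12 and 6 of 7, and Ctrl replicate 3 highest in 11 of 12 and 5 of 7. Ly6c2, a monocyte marker, went the other way (164, 156 and 130 CPM in SIS3_TGFb, 182, 155 and 189 CPM in TGFb and 210.3, 207 and 200 CPM in Ctrl libraries), whereas Lyz2, a macrophage lysozyme, went with the majority (577, 537 and 922 CPM in SIS3_TGFb, 586, 722 and 432 CPM in TGFb and 646, 783 and 894 CPM in Ctrl libraries), and the part of these cells in the result was not tested. With TMM factors 16 of the 26 remained members, under every scaling 15, without TGFb replicate 3 15, and without SIS3_TGFb replicate 3 23.

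Cenpa (chr5:30666877-30674837) encodes the histone H3 variant that marks centromeres. Cenpa was measured at 43.6, 44.5 and 44.5 CPM in SIS3_TGFb cells, 32.9, 32.5 and 27.2 CPM in TGFb cells and 50.7, 49.7 and 50.9 CPM in Ctrl cells. The groups did not overlap, and Cenpa stayed below Ctrl by -0.25 ± 0.056 (edgeR adjusted p = 0.00148). Ccnb2 (chr9:70407689-70421554), a B-type cyclin of mitotic entry, had 19.3, 19.6 and 23.4 CPM in SIS3_TGFb cells, 14.1, 15.1 and 14.8 CPM in TGFb cells and 17.7, 20.6 and 25.2 CPM in Ctrl cells. SIS3_TGFb and Ctrl libraries overlapped widely and their difference was -0.088 ± 0.1 (edgeR adjusted p = 0.502), which did not pass. Its paralogue Ccnb1 showed 16.7, 18.2 and 21.4 CPM in SIS3_TGFb cells, 13.8, 15.5 and 12 CPM in TGFb cells and 18.9, 20.7 and 21.7 CPM in Ctrl cells. That difference of -0.19 ± 0.094 (edgeR adjusted p = 0.108) did not pass either, though without SIS3_TGFb replicate 3 it was -0.28 (edgeR adjusted p = 0.0224). Hmmr (chr11:40701388-40733464), a spindle-associated protein, had 18.4, 19.6 and 22 CPM in SIS3_TGFb cells, 14.6, 15.7 and 13.9 CPM in TGFb cells and 21.1, 23.3 and 21.8 CPM in Ctrl cells. Only SIS3_TGFb replicate 3 reached into the Ctrl range, and the difference of -0.20 ± 0.075 passed narrowly (edgeR adjusted p = 0.0338), with an adjusted p between 0.084 and 0.152 without Ctrl replicate 2, SIS3_TGFb replicate 1 or SIS3_TGFb replicate 2.

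The other members of this group that were lower than in Ctrl were Tacc2, a spindle protein (-0.39), the mitotic kinesin gene Kif20a (-0.27), Arhgap19 (-0.27) and Ccna2, which encodes cyclin A2 (-0.24). Cep78, a centrosome protein, was the one above it (0.36). Those that did not pass include the transcription factor gene Foxm1 (-0.20), the ubiquitin-conjugating enzyme gene Ube2c (-0.031), the kinase genes Plk4 (-0.089) and Nek2 (0.026), and the kinesin genes Kif4 (-0.011) and Kif18b (0.017). In the wider list of 32 G2/M and mitosis genes, 7 of which are members, 26 fell and 0 rose with TGF-β1, 22 rose and 0 fell with SIS3 against TGFb, and 2 were higher, 7 lower and 23 not passed against Ctrl. Without TGFb replicate 3 these counts were 18 that fell and 15 that rose, and without SIS3_TGFb replicate 3 the number that rose was 14. Non-members of the list include Aurkb, a mitotic kinase, at -0.47 ± 0.13 (edgeR adjusted p = 0.00522) against Ctrl, and Prc1, a spindle midzone protein, at 0.23 ± 0.08 (edgeR adjusted p = 0.0239).

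Promoters of 5 cell division members are shown because many genes of this phase share the CHR element TTTGAA close to the start site with CCAAT boxes upstream. These 5 were chosen after their values were seen. Capitals mark the CHR letters and the CCAAT box, which is marked also where it lies on the opposite strand and so reads ATTGG, over 180 bases from 130 before the start site.
Ccnb2 (chr9:70421505-70421684, minus strand): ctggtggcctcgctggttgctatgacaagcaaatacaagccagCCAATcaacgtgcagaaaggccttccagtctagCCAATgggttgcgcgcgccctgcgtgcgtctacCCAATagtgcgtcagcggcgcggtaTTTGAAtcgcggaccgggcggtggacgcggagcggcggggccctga
Cenpa (chr5:30666756-30666935, plus strand): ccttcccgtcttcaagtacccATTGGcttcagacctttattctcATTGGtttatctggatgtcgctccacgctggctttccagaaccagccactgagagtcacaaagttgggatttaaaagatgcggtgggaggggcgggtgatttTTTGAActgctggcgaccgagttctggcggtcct
Hmmr (chr11:40733388-40733567, minus strand): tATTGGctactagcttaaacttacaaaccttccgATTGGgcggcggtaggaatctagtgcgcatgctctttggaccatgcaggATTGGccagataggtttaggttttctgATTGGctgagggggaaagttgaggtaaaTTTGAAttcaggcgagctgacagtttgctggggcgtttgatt
Cdca3 (chr6:124830046-124830225, plus strand): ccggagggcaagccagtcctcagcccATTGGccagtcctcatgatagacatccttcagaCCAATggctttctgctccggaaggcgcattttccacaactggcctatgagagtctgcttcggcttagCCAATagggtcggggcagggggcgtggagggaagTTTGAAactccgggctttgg
Kif18b (chr11:102925075-102925254, minus strand): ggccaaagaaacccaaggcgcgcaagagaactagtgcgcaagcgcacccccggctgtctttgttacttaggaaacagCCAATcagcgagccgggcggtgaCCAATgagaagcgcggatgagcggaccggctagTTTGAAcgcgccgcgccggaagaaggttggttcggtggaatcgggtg
In these windows TTTGAA began 4 bases after the window's start site in Ccnb2, 16 in Cenpa, 8 in Hmmr, 30 in Cdca3 and 3 in Kif18b. For Cenpa and Hmmr that start site lies inside the gene span given above, so the distance from the end of the span is larger. Among the cell division members with a window, 15 of 21 held the CHR letters (71.4%), beside 27 of 137 members (19.7%) and 944 of 7838 genes (12%). A CCAAT box was present in 17 of 21 (81%), beside 71 of 137 members (51.8%) and 3067 of 7838 genes (39.1%). The box was not particular to cell division, since 7 of 8 replication and repair windows (87.5%) and 9 of 12 amino acid and tRNA windows (75%) held it. Ribosome and RNA processing had 3 of 7, oxygen response 2 of 4 and NK effector and signalling genes 2 of 11. Outside cell division, the CHR letters were found in 2 of 11 windows of NK effector and signalling genes (18.2%) and 1 of 12 of amino acid and tRNA genes. They were in 0 of 8 windows of replication and repair, 0 of 7 of ribosome and RNA processing and 0 of 4 of oxygen response genes. Cell division genes outside the members were not counted apart, so the share is not shown to be particular to members. The reverse of the CCAAT box can overlap the TGF-β inhibitory element GNNTTGGNG.

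**Figure D5:**
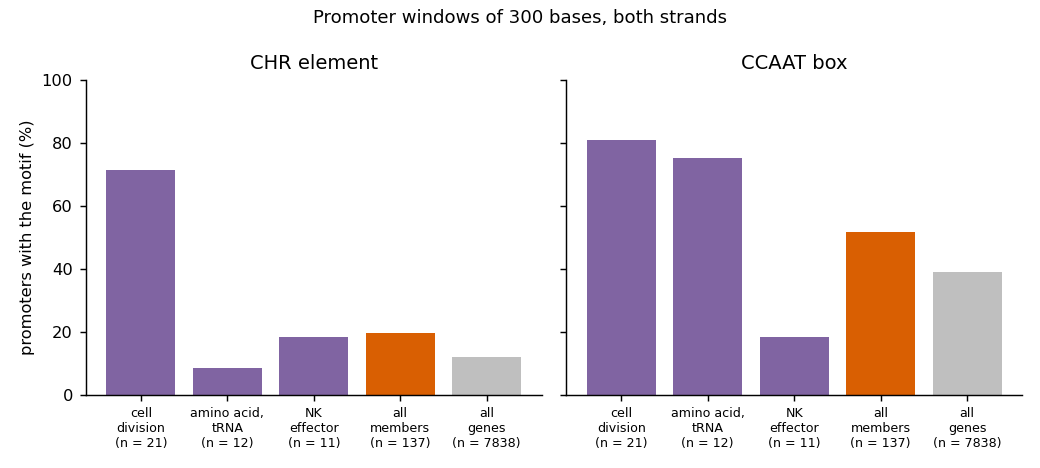
Bars give the percentage of promoter windows that hold the CHR letters (left) or a CCAAT box (right) on either strand, for 3 role groups, all members and all genes with a mean of at least 5 CPM and a window. Cell division members stand at 71.4% and 81%, all genes at 12% and 39.1%. Amino acid and tRNA members stand at 8.33% and 75%, NK effector and signalling members at 18.2% in both panels.

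Motifs tied to Smad proteins were about as common in members as elsewhere. CAGACA was present in 23 of 137 windows (16.8%, against 14.9% of all genes), the TGF-β inhibitory element in 32 (23.4%, against 20%), and the palindrome GTCTAGAC in 0 (against 0.204%). GGCGCC, a GC-rich Smad motif, was present in 24 (17.5%, against 22.3%), though in 7 of the 12 windows of amino acid and tRNA genes. The E2F motif GCGGGAA was found in 13 (9.49%, against 8.94%) and in 3 of 8 replication and repair windows. Members' windows had a median GC content of 59%, against 61.3% over all genes. No match says only that these letters are not in this window.

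DNA replication and repair gave 10 members, of which 8 did not pass against Ctrl, with a median share of 96.9% of the fall made up. This share describes genes chosen for a rise with SIS3 and not replication genes in general. Mcm10, which helps to start replication forks, had 6.79, 7.18 and 8.68 CPM in SIS3_TGFb cells, 4.91, 5.95 and 5.03 CPM in TGFb cells and 7.26, 7.06 and 8.54 CPM in Ctrl cells. Prim1, a primase subunit, had 16.2, 13.5 and 14 CPM in SIS3_TGFb cells, 10.4, 12.3 and 8.72 CPM in TGFb cells and 13.5, 15.9 and 14.7 CPM in Ctrl cells. Both overlapped with Ctrl, at -0.074 ± 0.13 (edgeR adjusted p = 0.658) and -0.073 ± 0.11 (edgeR adjusted p = 0.601). Orc6 (-0.043) and Orc2 (0.072) of the origin recognition complex did not pass, while Fignl1, an AAA ATPase of DNA repair, was below Ctrl (-0.30 ± 0.091 (edgeR adjusted p = 0.0118)). With TMM factors, under every scaling and without TGFb replicate 3, 6 of the 10 remained members. In the list of 32 replication genes, with 5 members, 19 fell and 0 rose with TGF-β1, 9 rose and 6 fell with SIS3, and 1 was higher and 15 lower than in Ctrl, with medians of -0.26, 0.03 and -0.22; without TGFb replicate 3 the SIS3 counts were 5 and 5, and without scaling factors 13 and 2. Pcna, the sliding clamp, was a non-member at -0.60 ± 0.038 (edgeR adjusted p = 2.05e-09) against Ctrl.

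A further group went beyond the Ctrl level. It held 13 members that act in amino acid uptake and synthesis, one-carbon metabolism or tRNA charging, or belong to the related stress response. Of these, 11 were above Ctrl (29% of all genes) and 0 below (24.9% of all genes), with a median difference of 0.47. The count above Ctrl was 11 under each scaling tried and without TGFb replicate 3 or SIS3_TGFb replicate 3. The count below Ctrl was 1 with upper-quartile factors and 0 under the others. Membership was less steady, since 7 of the 13 remained members with TMM factors and under every scaling, and 11 without TGFb replicate 3. Their levels summed to 2362, 2374 and 2341 CPM in SIS3_TGFb, 1173, 1182 and 1183 CPM in TGFb and 1638, 1615 and 1645 CPM in Ctrl libraries. These sums varied little within a group and the groups did not overlap. For these genes the part of the rise that exceeds the fall is not a return, and without a group given SIS3 alone it cannot be told apart from an effect of SIS3 that needs no TGF-β1.

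Slc1a4 (chr11:20302180-20332713), a transporter of alanine, serine and other neutral amino acids, had 127, 128 and 128 CPM in SIS3_TGFb cells, 28.1, 27.7 and 30.2 CPM in TGFb cells and 39.9, 38.9 and 37.7 CPM in Ctrl cells. Its fall was small (log2 -0.43), its rise large (2.14), and its SIS3_TGFb libraries stood 1.66 ± 0.047 (edgeR adjusted p = 2.76e-13) above Ctrl. Gpt2, the mitochondrial alanine aminotransferase, had 41.5, 44.4 and 41.9 CPM in SIS3_TGFb cells, 10.1, 9.44 and 10.4 CPM in TGFb cells and 16, 14.6 and 14.6 CPM in Ctrl cells. Bcat1, the cytosolic branched-chain aminotransferase, had 54.3, 54.5 and 61.5 CPM in SIS3_TGFb cells, 15.6, 16.6 and 14.8 CPM in TGFb cells and 26.1, 27.6 and 25.9 CPM in Ctrl cells. In both, every SIS3_TGFb library was at least as far above Ctrl as Ctrl was above TGFb, with differences from Ctrl of 1.44 ± 0.067 (edgeR adjusted p = 6.01e-11) and 1.04 ± 0.06 (edgeR adjusted p = 8.06e-10). Slc7a1, a transporter of arginine and lysine, had 333, 343 and 308 CPM in SIS3_TGFb cells, 149, 156 and 154 CPM in TGFb cells and 259, 241 and 234 CPM in Ctrl cells. It was 0.36 ± 0.05 (edgeR adjusted p = 1.73e-05) above Ctrl with no overlap.

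Herpud1, a factor of endoplasmic reticulum-associated degradation, had 116, 119.6 and 111 CPM in SIS3_TGFb cells, 29.5, 30.2 and 29.3 CPM in TGFb cells and 46.2, 44.2 and 46.2 CPM in Ctrl cells. Stc2, a secreted glycoprotein induced by stress, had 20.1, 25.1 and 22.3 CPM in SIS3_TGFb cells, 5.28, 6.07 and 4.2 CPM in TGFb cells and 8, 8.46 and 8.84 CPM in Ctrl cells. These stood at 1.28 ± 0.045 (edgeR adjusted p = 2.15e-12) and 1.35 ± 0.11 (edgeR adjusted p = 4.06e-08) against Ctrl. Mthfd2, a mitochondrial enzyme of one-carbon metabolism, had 211, 210.4 and 219 CPM in SIS3_TGFb cells, 113, 109 and 115 CPM in TGFb cells and 142, 154 and 149.6 CPM in Ctrl cells. Mthfd2 was 0.46 ± 0.039 (edgeR adjusted p = 7.77e-08) above Ctrl, but it was no member with TMM factors. Nor were Atf4, Xpot, Iars, Slc38a2 and Slc25a32, and the falls of these 6 genes, from -0.42 to -0.40, all lay near the limit. Atf4, the transcription factor of the amino acid response, was above Ctrl by 0.64 ± 0.038 (edgeR adjusted p = 8.72e-10), Xpot, the exporter of tRNA, by 0.47, and the tRNA synthetases Tars and Iars by 0.23 and 0.22. Slc38a2, a neutral amino acid transporter (-0.07), and Slc25a32, the mitochondrial folate carrier (-0.17), did not pass.

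The Iars window holds one of the 2 matches among members to TGATGNAAT, the C/EBP-ATF letters bound by ATF4, which 30 of 7838 genes (0.383%) share. It was chosen after its values were seen, and capitals mark that motif in reverse (ATTGCATCA) and the CCAAT boxes.
Iars (chr13:49682020-49682179, plus strand): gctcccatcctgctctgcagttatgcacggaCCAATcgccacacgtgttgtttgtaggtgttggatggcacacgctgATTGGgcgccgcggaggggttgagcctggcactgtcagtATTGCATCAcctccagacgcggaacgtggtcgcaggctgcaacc
In the wider list of 39 ATF4 and amino acid stress genes tested, 8 of which are members, 9 rose and 17 fell with TGF-β1, 37 rose and 2 fell with SIS3 against TGFb, and 36 were higher and 0 lower than in Ctrl. The median SIS3_TGFb minus Ctrl difference of the list was 0.88; both members and other genes of the list were thus above Ctrl. The non-members Slc7a5, the light chain of the leucine transporter, and Ddit3, a stress transcription factor, stood at 1.59 ± 0.037 (edgeR adjusted p = 4.43e-14) and 2.36 ± 0.07 (edgeR adjusted p = 3.29e-13) against Ctrl, with Slc7a5 higher (0.32) and Ddit3 lower (-0.35) in TGFb than in Ctrl cells.

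Oxygen response and endoplasmic reticulum oxidation gave 6 members, 4 of them above Ctrl (29% of all genes) and 1 below (24.9% of all genes). Ndrg1 (chr15:66929318-66969641), a gene induced by hypoxia and in several cell types linked to growth arrest, changed most in both steps of all members, when ranked by the smaller of its fall and rise. It was measured at 109, 109 and 95.3 CPM in SIS3_TGFb cells, 24.7, 25.1 and 26.3 CPM in TGFb cells and 61.6, 60 and 60.1 CPM in Ctrl cells. The 3 groups were wide apart, with SIS3_TGFb 0.72 ± 0.056 (edgeR adjusted p = 2.65e-08) above Ctrl. Also above Ctrl were Hif1a, the oxygen-regulated transcription factor (0.60 ± 0.039 (edgeR adjusted p = 3.22e-09)), Siah2, a ubiquitin ligase of the hypoxia response (0.50), and Plin2, a lipid droplet protein (0.39). Ero1a, the oxidase that drives disulphide formation, had 559.7, 539.8 and 511 CPM in SIS3_TGFb cells, 404, 429 and 395 CPM in TGFb cells and 572, 576 and 575 CPM in Ctrl cells. It stayed below Ctrl in every SIS3_TGFb library, by -0.16 ± 0.041 (edgeR adjusted p = 0.00426), and Pdia5, a disulphide isomerase, did not pass (-0.14). All 6 remained members with TMM factors and without TGFb replicate 3, and 4 did under every scaling. Of 31 glycolysis and HIF1 target genes, 4 rose and 14 fell with TGF-β1, 6 rose and 18 fell with SIS3, and 5 were higher and 20 lower than in Ctrl, so Ndrg1 and Ero1a were the 2 members of a list that moved mostly the other way in the SIS3 step. Slc2a3, a glucose transporter and non-member, stood at -1.15 ± 0.041 (edgeR adjusted p = 2.49e-12) against Ctrl.

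Ribosome and RNA processing genes numbered 7, of which 1 was above Ctrl, 1 below and 5 not passed; 4 remained members with TMM factors and 3 under every scaling. Nop58, a core protein of box C/D small nucleolar RNPs, had 80.3, 88.2 and 83.4 CPM in SIS3_TGFb cells, 54.9, 58.5 and 55 CPM in TGFb cells and 87.4, 97.2 and 87.8 CPM in Ctrl cells. Its SIS3_TGFb libraries overlapped with Ctrl, the difference was -0.17 ± 0.051 (edgeR adjusted p = 0.00918), and it did not pass without Ctrl replicate 2 (edgeR adjusted p = 0.0593) or without scaling factors (edgeR adjusted p = 0.0745). Xpo1, the main nuclear exportin, was 0.49 ± 0.057 (edgeR adjusted p = 2.59e-06) above Ctrl and was no member with TMM factors. Nop58 was the one member among 31 MYC and ribosome biogenesis genes, of which 2 rose and 27 fell with TGF-β1, 4 rose and 13 fell with SIS3 (8 and 7 without scaling factors), and 2 were higher and 26 lower than in Ctrl. Myc itself, a non-member, fell with TGF-β1 (-0.97) and was lower again with SIS3 (-1.67), at -2.63 ± 0.067 (edgeR adjusted p = 8.34e-14) against Ctrl.

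The other 100 members have varied or little-known roles, with 17 above Ctrl, 34 below and 49 not passed. Grk5, a kinase of G protein-coupled receptors, was not told from Ctrl by the test. Grk5 had 15.8, 15.4 and 13.9 CPM in SIS3_TGFb cells, 6.73, 7.39 and 7.57 CPM in TGFb cells and 15, 15.3 and 14.7 CPM in Ctrl cells. Its SIS3_TGFb and Ctrl libraries overlapped, at -0.053 ± 0.086 (edgeR adjusted p = 0.632). Similar overlaps were seen in Frmd5 (-0.098 ± 0.094 (edgeR adjusted p = 0.399)) and Rundc3b (0.085 ± 0.12 (edgeR adjusted p = 0.595)). Sult2b1, a sterol sulphotransferase, did not pass either (0.12 ± 0.1 (edgeR adjusted p = 0.356)).

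Far above Ctrl were Ciart and Efnb2. Ciart (chr3:95878500-95882257), a repressor of the circadian clock, had 36.2, 29.3 and 28.1 CPM in SIS3_TGFb cells, 2.73, 3.19 and 2.74 CPM in TGFb cells and 6.58, 7.24 and 5.55 CPM in Ctrl cells. Efnb2, which encodes the membrane ligand ephrin-B2, had 13, 17.2 and 12.8 CPM in SIS3_TGFb cells, 2.36, 1.92 and 3.18 CPM in TGFb cells and 3.91, 5.11 and 3.78 CPM in Ctrl cells. Both were low in Ctrl and TGFb cells and several times higher in every SIS3_TGFb library, by 2.21 ± 0.12 (edgeR adjusted p = 3.07e-10) and 1.68 ± 0.17 (edgeR adjusted p = 6.01e-07). Smaller excesses were found for Otub2, a deubiquitinase (0.66), Galnt18, a glycosyltransferase (0.56), Cldn12, a claudin (0.58), D6Wsu163e (0.59), Lratd2 (0.39), Abcb1a, a drug exporter (0.38), and Vps37b, an ESCRT-I subunit (0.24). Abcb1a did not pass without Ctrl replicate 3 (edgeR adjusted p = 0.0632).

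Well below Ctrl were Slc25a33 and Jdp2. Slc25a33, a mitochondrial carrier of pyrimidine nucleotides, had 12.4, 15.2 and 14 CPM in SIS3_TGFb cells, 9.22, 9.92 and 10.3 CPM in TGFb cells and 24.6, 23.6 and 20.5 CPM in Ctrl cells. Jdp2, a bZIP repressor of AP-1 sites, had 75, 80.1 and 77.2 CPM in SIS3_TGFb cells, 56.4, 54.7 and 63 CPM in TGFb cells and 121, 118 and 121 CPM in Ctrl cells. In both, the SIS3_TGFb libraries lay nearer to TGFb than to Ctrl, with 31% and 31.2% of the fall made up and -0.78 ± 0.093 (edgeR adjusted p = 3.37e-06) and -0.70 ± 0.052 (edgeR adjusted p = 1.8e-08) against Ctrl. Rasd2, a Ras-like GTPase, had 62.5, 61.1 and 59.8 CPM in SIS3_TGFb cells, 30.4, 31.9 and 30.1 CPM in TGFb cells and 80.8, 83.4 and 73.9 CPM in Ctrl cells. It had the second largest fall of all members (-1.35) and remained -0.44 ± 0.052 (edgeR adjusted p = 3.33e-06) from Ctrl. Abtb2 (-0.41) and Pkp4, a junctional plakophilin-like protein (-0.22), were also below Ctrl, and Cdca7, a chromatin protein of cycling cells, did not pass (-0.34 ± 0.16 (edgeR adjusted p = 0.0863)) with all libraries but did without SIS3_TGFb replicate 3 (-0.55, edgeR adjusted p = 0.00712).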

How the data were processed

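Poly-A RNA in 9 libraries (3 groups of 3) was read as paired ends on a DNBseq instrument, per the labels' protocols. The authors deposited 1 table of expected counts per gene, a unit read from the values: 10.2% to 11.1% of the values in a library are not whole and the totals differ. The builds mm10 and GRCm38 and the tools RSEM, Bowtie2, HISAT2, StringTie, Cufflinks and DESeq2 are listed per the submitters' processing notes; versions, roles and settings are not given there. Whether counting used strand is likewise not given, so overlapping genes may share reads. Multi-mapped reads are typically divided in expected counts, which makes genes with near-identical copies uncertain. Groups came from the sample titles. The table gives no symbol for 15 genes, and gene positions and promoters come from RefSeq tables of GRCm38.p6, in which 16828 of the 16876 gene IDs and all 178 members were found.

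The members were chosen on CPM by column totals as described in the results. For tests, counts were rounded, genes kept by filterByExpr (minimum count 10, minimum total 15), scaled by TMM and fitted in edgeR 4.0.16 (glmQLFit, glmQLFTest; R 4.3.3) with 1 mean per group over all 9 libraries (common biological coefficient of variation 4.53%, 6 residual degrees of freedom). P-values are two-sided, adjusted by Benjamini-Hochberg over 12212 genes and called below 0.05. Each SE was taken as |log2 change| over the root of the test's F. The script was tested on simulated data with known changes. DESeq2 1.42.0 served as an alternative.

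The members, gene lists, role groups and markers were chosen with earlier results of these data known. Values per library are given for the 24 members with the largest smaller of both steps (pseudogenes, Rik symbols and numbered gene models excepted), up to 4 members of each gene list, the 4 highest and 4 lowest against Ctrl, and Ncr1 and Ndrg1 by name; some of these are given by their difference only, and other members are named by role. Of each list, up to 3 genes outside the members could be named, those with the smallest p against Ctrl. Promoters were scanned for fixed letters on both strands with Python 3.11.15, with 1 window per gene, in 7838 genes with a mean of at least 5 CPM and a window.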

Additional observations from a re-analysis of the deposited data

How the results depend on the processing

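The number of members depended on scaling, on the fold limits and on the choice method. It was 178 as reported, 117 with TMM factors, 114 with DESeq2 size factors, 7 with limits of -1 and 0.5, and 116 with TMM factors and without TGFb replicate 3, an alternative chosen after seeing the data. Genes called by edgeR in both steps numbered 551, of which 161 were members. Under the other alternatives it stayed within 1.5 times: 152 with upper-quartile factors, 194 and 156 with pseudocounts of 0.1 and 1, 238 and 137 with minimum means of 1 and 10 CPM, 202 without the condition on overlap, 179 with rounded counts, and 158 to 236 when 1 library was left out. Members above Ctrl in SIS3_TGFb cells numbered 34 to 42 and members below 41 to 63 over all alternatives. DESeq2 called 2814 genes higher and 2800 lower against Ctrl. Over the 637 list genes tested, 186 rose and 190 fell in the SIS3 step, and 239 and 132 without scaling factors.

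Of 616 refits of single members (44 members, 14 alternatives), 604 kept their direction and side of the threshold, 9 lost the call, 3 gained it and 0 turned round while called; 6 uncalled differences changed sign. Hmmr lost it also without scaling factors (adjusted p 0.15) and with DESeq2 (0.092), and Abtb2 with DESeq2 (0.0531). The cause was not tested. Deviations of same-numbered libraries correlated at -0.147 to 0.126, and those of differently numbered libraries at -0.163 to 0.145. No pairing by replicate number was seen, though 3 libraries per group cannot exclude one. With the replicate block 36 members were above and 49 below Ctrl, and 500 genes (157 members) were called in both steps. Members near 5 CPM rest on fewer reads, with larger SEs, and 3 libraries per group limit what could be told from Ctrl.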

Other observations

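Of 28 gene lists examined, 14 held a member and 14 held none. Of 20 genes listed as lowered by TGF-β, with NK genes such as Ncr1 among them, 4 were members (Ifng, Gzmb, Ncr1 and Ccna2). In this list 4 rose and 12 fell with TGF-β1, 8 rose and 6 fell with SIS3, and 5 were higher and 9 lower in SIS3_TGFb than in Ctrl cells. Among 21 cytokine and growth factor receptors, with Ifngr1 as the one member, 4 rose and 6 fell, then 4 rose and 6 fell, and 3 were higher and 7 lower than in Ctrl. Of 20 STAT5 and cytokine feedback genes, which hold Osm, 8 rose and 10 fell, then 6 rose and 6 fell, and 7 were higher and 8 lower than in Ctrl. Of 22 nucleotide and one-carbon synthesis genes, which hold Mthfd2, 1 rose and 15 fell, then 6 rose and 8 fell, and 4 were higher and 14 lower than in Ctrl. The 25 unfolded protein response genes, with Herpud1 as the one member, gave 3 and 13, then 9 and 4, and 8 and 10. All counts are edgeR calls at an adjusted p below 0.05, and both steps share the TGFb libraries. Of all genes tested, 17.9% rose and 16.4% fell with TGF-β1, and 21.2% rose and 20.6% fell with SIS3. Against Ctrl, 29% of all genes were higher and 24.9% lower. These shares apply also to the lists with no member, and nothing is read from counts near them.

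Lists with no member include 25 Smad targets and feedback regulators, of which 18 rose and 0 fell with TGF-β1, 9 rose and 5 fell with SIS3, and 19 were higher and 1 lower in SIS3_TGFb than in Ctrl cells. Of 28 cholesterol synthesis genes, 5 rose and 8 fell with TGF-β1, and 1 rose and 25 fell with SIS3 against TGFb.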
